A study of Mus musculus with 18 samples.

Results

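Irx3 loss in the embryonic mouse ventricle was examined here by setting 3 libraries labelled Irx3KO (replicates 1, 2 and 4) against 3 wild-type libraries (WT, replicates 1, 2 and 3), with 6 libraries labelled knockout for both Irx3 and Irx4 (DKO) used as a bridge between them, 12 libraries of the 18 in all. All libraries hold polyA RNA of ventricles dissected at E14.5 (embryonic day). The labels give the genotypes as WT, Irx3KO, Irx4KO, Irx3KO_Irx4KO (DKO here) and Irx3het_Irx4het (dHet here, with 1 mutant copy of each gene), and name no strain, litter or sex. They are silent on the part of either gene that was removed and on whether libraries are from different embryos, so a p-value below reflects how far these libraries vary, in part perhaps for technical reasons.

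The bridge is needed because WT and Irx3KO differ in technical profile. Across the 18 libraries, the level of a gene relative to the other libraries fell with transcript length in WT and in DKO 5, 7 and 10 (Spearman correlation across genes between -0.586 and -0.343), and rose with it in the other 12 libraries (between 0.062 and 0.567). These groups are called set 1 and set 2. The labels name no such sets, which were found from the data, and DKO is the 1 genotype present in both. The direct difference, Irx3KO minus WT, is called unbridged. The bridged difference is the sum of a step inside set 2 (Irx3KO minus DKO 2, 3 and 4) and a step inside set 1 (DKO 5, 7 and 10 minus WT). It takes the difference between the sets to be the same on the log2 scale in every genotype, which cannot be checked outside DKO. Unbridged minus bridged is, by arithmetic, the difference between the DKO libraries of set 2 and those of set 1.

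Irx3 is a transcription factor of the Iroquois homeobox family. In the heart it is known from the trabecular myocardium and the ventricular conduction system, where it has been linked to the connexin genes Gja1 and Gja5. Irx4 is a member of the same family that marks ventricular muscle. Compaction, the question of the study's title, is the stage at which the spongy inner trabeculae and the dense outer wall of the ventricle take their final proportions.

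Library totals of the 18 lay between 26721576 and 45946741 estimated counts. Levels are given as CPM, which corrects counts for library size but not for transcript length, and differences as log2 values with their standard error (SE). Adjusted p-values are from edgeR's quasi-likelihood F test over 16607 genes, and a gene is called when its adjusted p lies under 0.05. Myl2, the ventricular myosin light chain, was read at 4850 to 4990 CPM in WT and 3680 to 4340 CPM in Irx3KO, and Myl7, its atrial counterpart, at 244 to 469 CPM and 304 to 324 CPM. Summed counts of Y-linked genes were 0.911 CPM in WT 3 and 1.10 CPM in DKO 4, against 98.1 to 299 CPM in the other 10 libraries of the bridge.

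Irx3 itself was read at 22.1, 24.0 and 28.5 CPM in WT and at 2.80, 3.11 and 2.58 CPM in Irx3KO. The groups did not overlap, as for 39.8% of all genes tested, and the DKO libraries of both sets stayed near the Irx3KO level. The level was 3.18, 4.33 and 3.80 CPM in DKO 5, 7 and 10, and 3.32, 3.82 and 3.83 CPM in DKO 2, 3 and 4. Bridge and direct comparison gave almost the same number for Irx3, which fell by 3.09 on the log2 scale in the bridge (SE 0.18, adjusted p = 7.8e-08) and by 3.13 unbridged (SE 0.13, adjusted p = 3.0e-10). Between the DKO sets it differed by -0.04 (adjusted p = 0.86). The 3 dHet libraries lay between, at 12.8, 13.2 and 13.3 CPM, and the Irx4KO libraries, at 22.2, 26.2 and 26.4 CPM, overlapped WT.

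The remaining Irx3 counts were not spread evenly over its annotated transcripts. The shorter transcript (ENSMUST00000093312, 2345 bases) held 161.2, 171.6 and 49.2 estimated counts in WT and 8.7, 0.0 and 0.0 in Irx3KO. The longer one (ENSMUST00000175795, 2748 bases) held 731.8, 753.4 and 1145.8 estimated counts in WT and still 105.3, 120.0 and 102.0 in Irx3KO. So nearly all of the residual signal in the libraries labelled Irx3KO was assigned to the longer transcript. How kallisto divides reads between overlapping transcripts is an estimate, and a value of 0.0 there is not a count of reads.

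**Figure D1:**
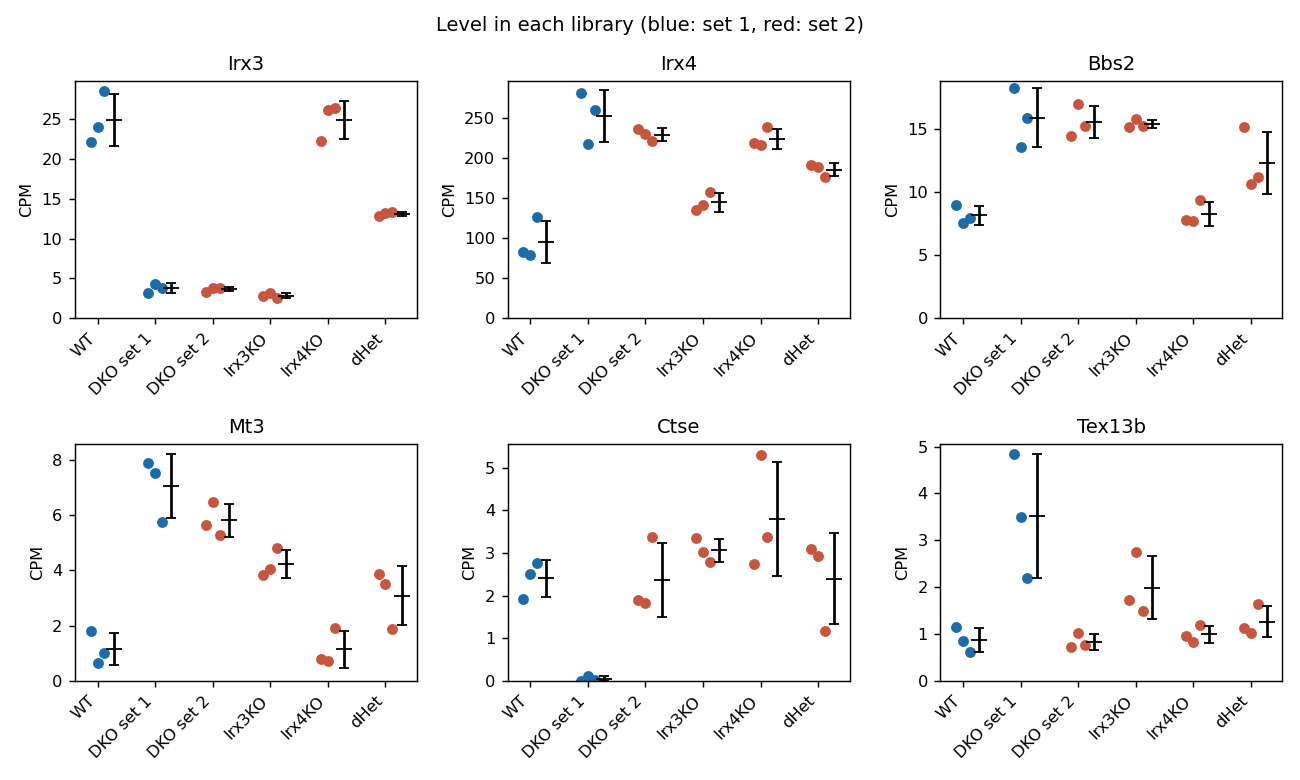
Level in CPM of 6 genes in each of the 18 libraries, by group. Points are libraries (blue, set 1, and red, set 2) and black bars are the mean with the SD of 3. Irx3, Bbs2 and Mt3 sit at like levels in both DKO sets, whereas Ctse and Tex13b differ between the DKO sets.

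In the bridge 3 of 16607 genes (0.0181%) were called: Irx3 and Ctse fell and Tex13b rose. Ctse and Tex13b lay under the level set for naming genes and are named, after their values were seen, because so few genes passed. Ctse encodes cathepsin E, an aspartic protease, and its WT and Irx3KO libraries differed little, though without overlap. It was read at 1.93, 2.51 and 2.77 CPM in WT and at 3.35, 3.03 and 2.80 CPM in Irx3KO. Its bridged value of -5.37 (SE 0.74, adjusted p = 0.0093) came from DKO, where it was at 0.00, 0.109 and 0.0234 CPM in set 1 and at 1.89, 1.83 and 3.38 CPM in set 2. The fitted size rests on a handful of counts in set 1 and is no bound. The unbridged difference was 0.35 (adjusted p = 0.61), and without DKO 10 the bridged adjusted p was 0.094.

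Tex13b, a gene named for its expression in testis, was read at 1.14, 0.855 and 0.620 CPM in WT and at 1.72, 2.75 and 1.49 CPM in Irx3KO. It was 4.85, 3.49 and 2.20 CPM in DKO of set 1 and 0.713, 1.02 and 0.760 CPM in DKO of set 2. WT and Irx3KO did not overlap, and neither did the DKO sets, which differed in the opposite direction. The bridged difference was 3.26 (SE 0.46, adjusted p = 0.0093), the unbridged one 1.19 (adjusted p = 0.022), and DKO set 2 minus set 1 was -2.07 (adjusted p = 5.1e-04). Without DKO 4 the bridged adjusted p was 0.054. For both genes the bridged call therefore turns on a difference within 1 genotype, and the part of the library set in it was not tested.

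Outside these 3 genes the bridge gave values and no calls. Without adjustment, 776 genes (4.67%) had p under 0.05, of which 349 were higher and 427 lower in Irx3KO. DESeq2 called 16 genes in the same contrast (4 higher, 12 lower) and limma-voom with quality weights called Irx3 alone. The median SE of a bridged difference was 0.176, against 0.124 unbridged, a ratio of 1.41. The 95% interval of the bridged difference lay inside 1 log2 unit on either side of 0 for 11966 genes (72.1%), and for 10713 of the 11252 genes with a mean of at least 5 CPM (95.2%). For the other genes the interval reached past a 2-fold difference on at least 1 side.

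Of the uncalled genes, those with the smallest bridged p were read as follows. Bbs2, a subunit of the BBSome that carries cargo to the primary cilium, was at 9.0, 7.59 and 7.92 CPM in WT and at 15.2, 15.8 and 15.3 CPM in Irx3KO. It was equally high in DKO, at 18.3, 13.6 and 15.9 CPM in set 1 and at 15.6 ± 1.26 CPM (SD, n = 3) in set 2, and low in Irx4KO, at 7.77, 7.70 and 9.39 CPM. Every Irx3-null library was above every WT and Irx4KO library. Bbs2 rose in the unbridged comparison by 0.92 (SE 0.14, adjusted p = 3.5e-04). The bridged difference was 0.95, but its SE was 0.19 and its adjusted p 0.36. Here the gene did not differ detectably between the DKO sets (-0.03, adjusted p = 0.90), so the bridge left the size and raised the error. By the same F test its unadjusted p was 4.1e-06 unbridged and 1.3e-04 bridged. The adjustment differs too, since 4471 genes had an unadjusted p under 0.05 unbridged and 776 in the bridge. DESeq2 gave the bridged value an adjusted p of 0.0057. In dHet Bbs2 was at 15.2, 10.7 and 11.2 CPM, above all WT and Irx4KO libraries.

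Mt3, a metallothionein, showed the same order at a lower level and was chosen after its values were seen. It was read at 1.79, 0.648 and 1.00 CPM in WT, at 0.780, 0.726 and 1.92 CPM in Irx4KO, and at 3.84, 4.05 and 4.80 CPM in Irx3KO. DKO lay higher still, between 5.74 and 7.89 CPM in set 1 and between 5.29 and 6.48 CPM in set 2. The unbridged difference was 1.88 (SE 0.37, adjusted p = 0.0029) and the bridged one 2.16 (SE 0.49, adjusted p = 0.50). Over all genes tested, 5 (0.0301%) had all 9 Irx3-null libraries above the 6 of WT and Irx4KO: Bbs2, Mt3, Fuk, Pvalb and Sfmbt1. A further 9 (0.0542%) had all 9 below, Irx3 among them. Fuk, a fucokinase, was at 13.6, 14.0 and 13.6 CPM in WT and at 16.8, 17.2 and 16.5 CPM in Irx3KO (bridged 0.45, SE 0.21, adjusted p = 1).

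Bbs2, Mt3 and Fuk share a chromosome with Irx3, chromosome 8. By gene order in RefSeq (GRCm38.p6), Bbs2 and Mt3 are 20 and 22 protein-coding genes from Irx3, and the next gene, Mt2, is 23 away. Mt2, a metallothionein induced by zinc and glucocorticoids, went the other way. It was read at 12.2, 4.43 and 11.1 CPM in WT and at 2.61, 1.92 and 1.72 CPM in Irx3KO, and fell by 2.15 unbridged (SE 0.46, adjusted p = 0.0072). Its bridged difference was -1.50 (SE 0.65, adjusted p = 1), and in Irx4KO it was at 9.76, 9.35 and 8.90 CPM. In DKO it was at 5.43, 2.61 and 1.36 CPM in set 1 and at 1.89, 1.91 and 2.19 CPM in set 2, so DKO 5 lay above the lowest WT library. Tox3, 6 genes away on the other side, and Gnao1, 16 away, had bridged differences of 0.32 (SE 0.11) and 0.36 (SE 0.10), with adjusted p of 0.93 and 0.84. In all, 5 of 40 tested genes within 25 genes of Irx3 (12.5%) had an unadjusted bridged p under 0.05, against 4.60% on all other chromosomes together. Within 10 genes it was 1 of 16 (6.25%), within 50 genes 6 of 79 (7.59%) and within 100 genes 8 of 158 (5.06%). Over chromosome 8 without Irx3 it was 52 of 878 (5.92%).

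Fto, whose introns are known to hold regulatory elements of Irx3, was measured tightly, at 134, 129 and 128 CPM in WT and at 125, 126 and 122 CPM in Irx3KO. Its bridged difference was -0.02 with a 95% interval from -0.17 to 0.13. Of the 50 genes with the smallest bridged p, 11 lay on chromosome 8, which carries 5.29% of the genes tested, with Irx3 itself among the 11. Chromosome 2, which carries 8.26%, held 13 of the 50. Position near the mutated locus and loss of Irx3 cannot be told apart in these libraries.

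Bbs2 and Mt3 were high in all 9 Irx3-null libraries, and their neighbour Mt2 was low in Irx3KO against WT. To set these 3 side by side, the 250 bases upstream of each start are shown (RefSeq, GRCm38.p6, 5′ to 3′ along the gene's own strand). Capitals mark the core of the metal response element, TGCACNC or TGCGCNC on either strand. Bbs2 is chr8:94098510-94098759 on the minus strand, Mt3 is chr8:94152357-94152606 on the plus strand, and Mt2 is chr8:94172368-94172617 on the plus strand.
Bbs2: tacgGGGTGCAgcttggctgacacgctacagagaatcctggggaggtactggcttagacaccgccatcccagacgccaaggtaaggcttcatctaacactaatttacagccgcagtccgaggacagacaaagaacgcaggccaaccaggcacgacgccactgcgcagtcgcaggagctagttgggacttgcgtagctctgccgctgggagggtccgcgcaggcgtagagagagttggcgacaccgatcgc
Mt3: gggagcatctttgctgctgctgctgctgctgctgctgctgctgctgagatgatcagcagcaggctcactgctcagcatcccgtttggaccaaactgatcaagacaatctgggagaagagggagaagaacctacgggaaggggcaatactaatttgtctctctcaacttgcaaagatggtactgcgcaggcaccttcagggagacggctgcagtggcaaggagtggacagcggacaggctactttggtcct
Mt2: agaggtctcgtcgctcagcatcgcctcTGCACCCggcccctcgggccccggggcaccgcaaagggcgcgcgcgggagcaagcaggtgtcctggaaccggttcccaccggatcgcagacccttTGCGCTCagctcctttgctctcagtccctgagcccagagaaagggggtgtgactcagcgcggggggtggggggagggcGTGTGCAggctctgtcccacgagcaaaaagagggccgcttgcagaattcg
Mt2 holds 3 matches, Bbs2 holds 1 and Mt3 holds 0, while 21.4% of 32851 promoter windows of this length hold at least 1. The palindrome ACANNTGT, which Iroquois proteins are known to bind, is in none of the 3 windows and in 6.31% of all windows. A match is a description of these letters and not a binding site.

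The other genes named by the smallest bridged p above 5 CPM were, on the higher side, Dph6, Yars, Cacna1a, Ror2 and Micu3. On the lower side they were Dusp4, Angpt2, Zfp970, Smoc2 and Fbxl20, and none of these genes was called. Cacna1a, Micu3, Dusp4 and Angpt2 lie on chromosome 8 with Irx3, at a distance not given here. The part of position in their values was not tested. Cacna1a, a pore subunit of neuronal calcium channels, was steady within groups. It was at 11.2, 11.4 and 10.9 CPM in WT and at 14.1, 14.2 and 16.0 CPM in Irx3KO, and its bridged and unbridged differences were 0.46 (SE 0.11, adjusted p = 0.53) and 0.40 (SE 0.079, adjusted p = 0.0028). Ror2, a receptor for Wnt5a, was at 48.6, 54.7 and 52.2 CPM in WT and at 64.5, 62.7 and 63.3 CPM in Irx3KO (bridged 0.41, SE 0.10, adjusted p = 0.54, and unbridged 0.29, adjusted p = 0.013). Dph6, which acts in diphthamide synthesis, had bridged and unbridged differences of 0.84 and 0.55. In these 3 genes the DKO sets did not differ past the threshold, but unlike Bbs2 their levels did not follow the Irx3 genotype in all groups. Dph6 was also high in Irx4KO, at 47.1, 48.3 and 53.7 CPM, against 32.0, 28.8 and 26.9 CPM in WT. Mean levels of Cacna1a were 10.8 and 10.4 CPM in DKO of set 1 and set 2, near the 11.2 CPM of WT. For Ror2 they were 56.2 and 51.7 CPM, against 51.8 CPM in WT. Yars, a tRNA synthetase, and Micu3, a regulator of mitochondrial calcium uptake, had bridged differences of 0.74 and 0.77, unbridged ones of 0.30 and 0.20, and DKO set differences of -0.44 and -0.57, both called.

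Among the lower genes the DKO sets did differ. Dusp4, a phosphatase that turns off MAP kinases, was at 9.62, 11.0 and 9.97 CPM in WT and at 7.45, 7.88 and 6.82 CPM in Irx3KO. Its bridged difference was -1.01 (SE 0.20, adjusted p = 0.30) and its unbridged one -0.47 (adjusted p = 0.037), with 0.55 between the DKO sets (adjusted p = 0.013). Fbxl20, an F-box protein of ubiquitin ligases, was at 40.4, 33.2 and 47.5 CPM in WT and at 38.8, 37.6 and 50.1 CPM in Irx3KO, which overlap. Its bridged difference of -0.81 (SE 0.19, adjusted p = 0.50) came with a DKO difference, in which set 2 exceeded set 1 by 0.88 (adjusted p = 5.0e-04). Angpt2, a ligand of the endothelial receptor Tie2, and Smoc2, a matricellular protein, had bridged differences of -2.10 and -1.08 and DKO set differences of 1.30 and 0.74.

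The unbridged comparison called far more genes, 2132 of 16607 (12.8%), with 1256 higher and 876 lower in Irx3KO. DKO set 2 against DKO set 1, which share no library with it and have 1 genotype, called 3119 (18.8%), with 1618 higher and 1501 lower. Of the 2132, 2083 (97.7%) had the same sign between the DKO sets, against 75.3% of all genes tested. Both comparisons called 1500 genes with the same sign, 70.4% of the unbridged calls and 48.1% of the DKO set calls, and 3 with opposite signs. Over all 16607 genes the 2 differences correlated with a Pearson r of 0.48 and a Spearman rho of 0.57, a description across genes that share libraries. The median size of the difference among the 2132 was 0.40 unbridged and 0.09 bridged, and 157 of them (7.36%) had an unadjusted bridged p under 0.05.

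Both differences followed transcript length. The genes called higher unbridged had a median transcript length of 5288 bases and those called lower 1248 bases, against 2373 bases over all genes tested. Across 11252 genes of at least 5 CPM the Spearman correlation with length was 0.62 for the unbridged difference, 0.60 for the DKO set difference and -0.05 for the bridged one. In the tenth of genes with the shortest transcripts the median unbridged difference was -0.23 and the median DKO set difference -0.244. In the tenth with the longest they were 0.301 and 0.308, and the bridged medians were -0.003 and 0.007. With the length trend of each library removed, 754 genes were still called unbridged (483 higher, 271 lower) and 1455 between the DKO sets.

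**Figure D2:**
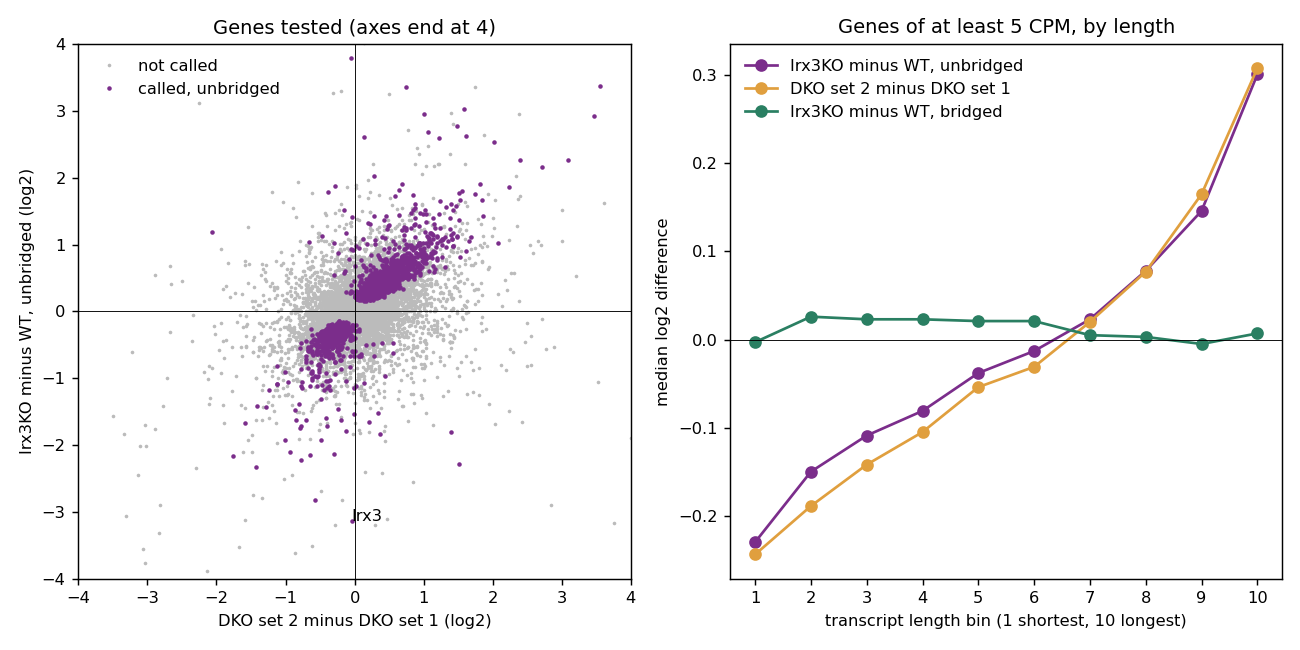
Left, the unbridged difference of each gene (log2, vertical) against the difference between the DKO sets (log2, horizontal), with genes called unbridged in purple and 87 genes outside the axes. Right, the median log2 difference in 10 bins of transcript length over genes of at least 5 CPM. The purple genes lie mostly in the quadrants of same sign, Irx3 lies on the vertical axis line, and the bridged medians stay near 0 from the shortest bin to the longest.

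Mycn, a transcription factor that drives growth of the compact myocardium, differed between the DKO sets about as much as between Irx3KO and WT. It was read at 49.1, 56.2 and 44.4 CPM in WT and at 149, 156 and 171 CPM in Irx3KO, and rose unbridged by 1.67 (SE 0.11, adjusted p = 8.4e-08). In DKO, at 1 genotype, it was at 35.4, 34.2 and 33.9 CPM in set 1 and at 128, 105 and 139 CPM in set 2, a difference of 1.85 (adjusted p = 2.6e-08). The bridged difference was -0.18, with a 95% interval from -0.50 to 0.14. Fat1, a giant cadherin, went from 53.9, 51.2 and 48.1 CPM in WT to 146, 146 and 161 CPM in Irx3KO (unbridged 1.57, SE 0.20, adjusted p = 2.1e-04). Its bridged difference was 0.09, with an interval from -0.50 to 0.69.

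Mlph, an adaptor of melanosome transport, and N4bp2 had unbridged differences of 3.37 and 2.16 and bridged ones of -0.17 and -0.55. The histone genes Hist1h2an and Hist1h2ad had unbridged differences of 7.37 and 6.48 from levels of 0.119 CPM or less in WT, and they were also near 0 in DKO of set 1. Their bridged differences were -1.46 (SE 1.0) and 1.0 (SE 0.46), neither called. Histone genes of this cluster are near-identical copies, so their counts are uncertain, and the unbridged folds rest on a few counts. Hist1h2ap and Hist1h2ao, which received identical counts, fell unbridged by 1.09. Slc25a31, a mitochondrial ADP/ATP carrier (-1.67), Ppp1r17 (-1.43), Kcne3 (-1.12) and Cebpb (-1.06) fell too. Of these, Kcne3, a potassium channel subunit, was farthest from 0 in the bridge (-0.47, SE 0.23, adjusted p = 1).

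The working genes of the ventricle gave no call in the bridge. The interval of the difference was narrow for some abundant ones, such as Gja1, and wide for others, such as Gja5. The connexin gene Gja1 was at 593, 580 and 475 CPM in WT and at 505, 520 and 583 CPM in Irx3KO, which overlap. Its bridged difference was 0.15 with a 95% interval from -0.11 to 0.40. Its DKO libraries were lower in both sets, at 361, 340 and 407 CPM and at 304, 343 and 327 CPM. Gja5, the connexin of the trabecular and His-Purkinje myocardium, was at 193, 198 and 221 CPM in WT and at 202, 212 and 178 CPM in Irx3KO. Its bridged interval was wide, from -0.29 to 0.95, and 1 DKO library of set 1 stood at 412 CPM against 190 and 265 CPM. These intervals cover the spread of the libraries and say nothing of a change in few cells, and in bulk ventricle fewer cells of a type and less RNA per cell cannot be told apart.

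Over all genes tested, 7.56% were called higher and 5.27% lower in the unbridged comparison, which is the background for the list counts below. Of 27 gap junction and conduction genes, 4 rose and 1 fell unbridged, few enough that nothing is read from them, and 0 were called in the bridge, where their median was -0.03. Without WT 1 or any 1 Irx3KO library 3 rose and 0 fell. The one that fell, Kcne1, a potassium channel subunit, had the same value of -0.40 in both (adjusted p = 0.035 unbridged and 1 bridged, bridged SE 0.17). Its 3 Irx3KO libraries were at 67.0, 67.1 and 71.5 CPM, and 1 WT library, at 70.4 CPM, fell among them. Scn10a, a sodium channel, had a bridged difference of -0.59 (SE 0.26, adjusted p = 1). The trabecular list of 11 genes had Irx3 as its 1 call in either comparison. Nppa, a natriuretic peptide of the trabeculae, and Bmp10, a growth factor they need, had bridged differences of -0.06 and 0.38 with intervals from -0.62 to 0.50 and from -0.31 to 1.08.

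Compact myocardium genes rose unbridged in 3 of 7 cases (Mycn, Tbx20 and Sorbs2) and in 0 of 7 in the bridge, and their median went from 0.27 to -0.03. The unbridged count was 1 without WT 2 or Irx3KO 4 and 2 without WT 3, with 7.56% of all genes called higher. Tbx20, a T-box factor, was 282, 259 and 303 CPM in WT and 458, 408 and 523 CPM in Irx3KO (unbridged 0.72, adjusted p = 0.015), and -0.13 in the bridge (interval from -0.67 to 0.40). Sarcomere genes went both ways unbridged, with 8 higher and 4 lower of 29: titin (Ttn), with a long transcript, rose by 0.66 and the short Myl2 fell by 0.33. Neither was called in the bridge, where Ttn was at 0.10 and Myl2 at 0.10. In the bridge 26 of 29 sarcomere genes lay above 0, with a median of 0.12, against 51.7% of all genes above 0. That median joins -0.07 inside set 2 and 0.17 inside set 1. Atrial marker sums moved alike: 1750 to 2250 CPM in WT and 2730 to 2990 CPM in DKO of set 1, 1810 to 1840 CPM in Irx3KO and 2080 to 2350 CPM in DKO of set 2. Their part in the sarcomere values was not tested. Myh6, the alpha myosin heavy chain, was the member with the smallest bridged p (0.52, SE 0.17, adjusted p = 0.87).

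**Figure D3:**
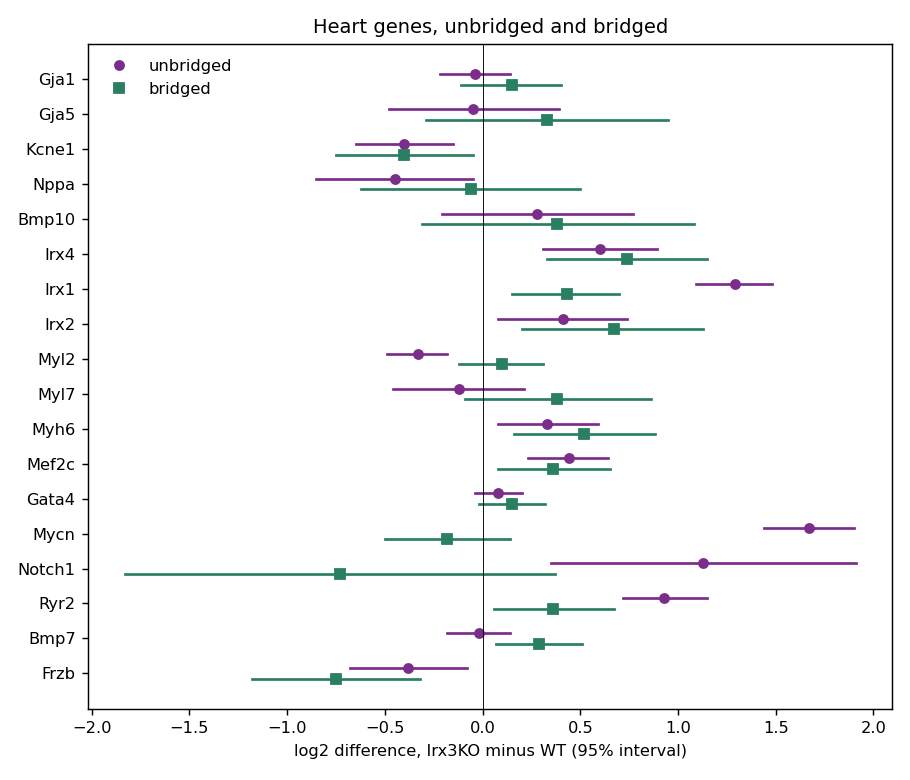
Irx3KO minus WT (log2, horizontal) for 18 heart genes, unbridged (purple circles) and bridged (green squares), with 95% intervals as lines. Mycn, Irx1 and Ryr2 shift left in the bridge, Gja1 and Gata4 stay near 0 in both, and the bridged interval of Notch1 is wide, from -1.83 to 0.37.

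Other heart lists gave the same picture by count. Of 16 calcium handling genes 5 rose and 1 fell unbridged and 0 were called in the bridge. Ryr2, the calcium release channel, rose by 0.93 unbridged (255, 220 and 214 CPM in WT, 431, 424 and 460 CPM in Irx3KO) and stood at 0.36 in the bridge (interval from 0.06 to 0.67, adjusted p = 1). Extracellular matrix genes rose unbridged in 7 of 21 cases and in 0 of 21 in the bridge, and fibronectin (Fn1) went from 0.79 to 0.12. Growth factor and receptor genes of trabeculation rose in 3 of 23 cases, Erbb4 (0.77) and Igf1r (0.87) among them, and in 0 of 23 in the bridge (0.23 and 0.11). That count is too small to set the list apart from the 7.56% of all genes, was 4 without DKO 5, and was 1 with the length trend removed. Of 31 ribosomal protein genes, which have short transcripts, 1 rose and 21 fell unbridged (14 fell without WT 2), with medians of -0.33 unbridged, -0.29 between the DKO sets and -0.07 in the bridge. With the length trend of each library removed, the unbridged calls were 1 higher and 1 lower among sarcomere genes, 1 higher among matrix genes and 10 lower among ribosomal protein genes, while all 3 in the compact myocardium were still called higher.

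Of 23 Wnt pathway genes 5 lay above 0 in the bridge, against 51.7% of all genes, with a median of -0.12 and 0 calls. The list median was -0.22 in the step inside set 2 and 0.04 in the step inside set 1. Frzb, a secreted Wnt antagonist, was at 17.8, 17.6 and 18.2 CPM in WT and at 14.1, 14.9 and 12.3 CPM in Irx3KO (bridged -0.75, SE 0.20, adjusted p = 0.69). Sfrp2, of the same class, was at -1.06 (SE 0.40, adjusted p = 0.98). Of 17 Notch pathway genes 2 rose unbridged, again too few to set against 7.56% of all genes, and 0 were called in the bridge. Without DKO 5, 7 or 10 the count was 4, and with the length trend removed it was 0. Notch1 itself was at 24.3, 20.2 and 35.1 CPM in WT and at 47.0, 75.7 and 51.5 CPM in Irx3KO, yet its bridged difference was -0.73, with DKO at 15.2, 7.49 and 23.0 CPM in set 1 and at 50.8, 65.7 and 50.3 CPM in set 2.

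The other Iroquois genes were all above 0 in the bridge, with a median of 0.55 over Irx1, Irx2, Irx5 and Irx6 and 0 calls. Irx1 was at 13.1, 11.9 and 14.0 CPM in WT and at 28.9, 32.3 and 34.1 CPM in Irx3KO. It rose unbridged by 1.29 (SE 0.093, adjusted p = 3.6e-07), the DKO sets differed by 0.86 (adjusted p = 3.8e-05), and the bridge left 0.43 (SE 0.13, adjusted p = 0.86). Irx2 had bridged and unbridged differences of 0.67 (SE 0.22, adjusted p = 0.87) and 0.41. Irx5, next to Irx3 on chromosome 8, fell unbridged by 0.52 (adjusted p = 0.0060) and stood at 0.03 in the bridge (interval from -0.31 to 0.36), and Irx6 at 0.69 (SE 0.48).

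Irx4 was at 82.6, 78.7 and 126 CPM in WT and at 135, 142 and 158 CPM in Irx3KO, with no overlap. It rose unbridged by 0.60 (SE 0.14, adjusted p = 0.0083) and did not differ detectably between the DKO sets (-0.14, adjusted p = 0.51). The bridged difference was 0.74 (SE 0.19, adjusted p = 0.60), and 0.98 with an adjusted p of 0.0047 without WT 3, the highest WT library. Irx4 counts were higher still in the libraries labelled Irx4KO (219, 216 and 239 CPM) and in DKO, so its count does not mark the loss of Irx4.

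Markers of other cell types were not called in the bridge in any list. Macrophage and leukocyte markers fell unbridged in 5 of 15 cases, with a median of -0.55, and stood at -0.21 in the bridge with 2 of 15 above 0. The unbridged count was 0 without WT 2 or Irx3KO 1, 1 without Irx3KO 2 or Irx3KO 4, and 6 without WT 1 or WT 3. With the length trend removed it was 0. Without Irx3KO 1, 2 or 4 the unbridged median was -0.57, -0.61 and -0.55, so calls were lost there and the size was not. Without WT 2 the medians were -0.35 unbridged and -0.01 in the bridge. Their summed level was 148 to 257 CPM in WT, 120 to 138 CPM in Irx3KO, 120 to 166 CPM in DKO of set 1 and 109 to 117 CPM in DKO of set 2. C1qa, a complement gene of macrophages, was at 6.40, 14.3 and 6.94 CPM in WT and at 4.33, 5.39 and 4.07 CPM in Irx3KO, so 1 WT library stood high. Its unbridged and bridged differences were -1.0 (adjusted p = 0.018) and -0.39 (SE 0.37, adjusted p = 1). Erythroid markers summed to 5590 to 8110 CPM in WT and 6410 to 8240 CPM in Irx3KO, and endothelial and endocardial markers to 1580 to 1830 CPM and 1620 to 1870 CPM, ranges that overlap. The axon genes Nefl and Nefm had bridged differences of 0.83 (SE 0.25) and 1.63 (SE 0.56), at 3.79 to 4.20 CPM in WT and 4.18 to 6.16 CPM in Irx3KO for Nefl. Neither was called. Their list, neural crest and neuron, had a bridged median of 0.05, with 7 of 11 genes above 0 against 51.7% of all genes. Its summed level was 48.1 to 55.3 CPM in WT and 49.6 to 52.8 CPM in Irx3KO, which overlap.

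**Figure D4:**
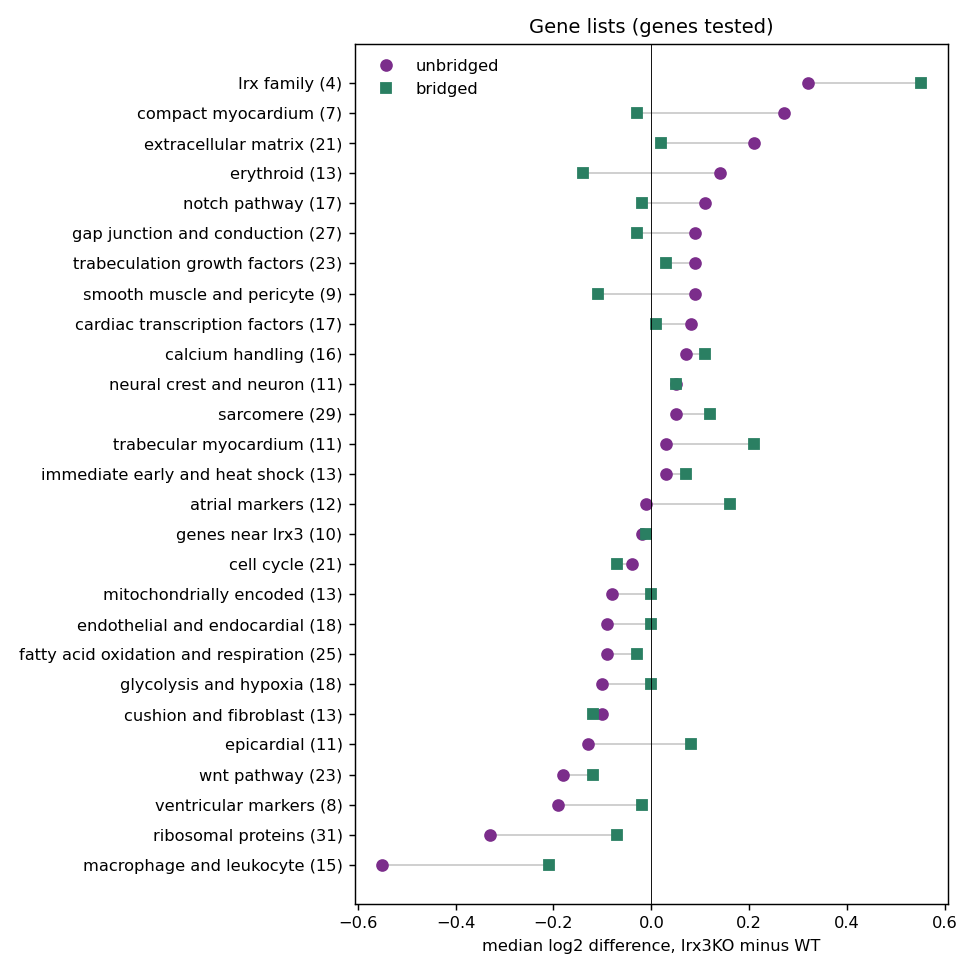
Median log2 difference, Irx3KO minus WT, of 27 gene lists, unbridged (purple circles) and bridged (green squares), with the number of genes tested in brackets. Medians run from -0.55 to 0.32 unbridged and from -0.21 to 0.55 bridged. The macrophage, ribosomal protein and compact myocardium lists move toward 0 in the bridge. Others move away from it, among them the Iroquois (0.32 to 0.55), trabecular (0.03 to 0.21) and atrial (-0.01 to 0.16) lists.

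Irx3 loss was read in 2 further contrasts. The bridged difference was set against Irx3 loss on the Irx4 mutant background (DKO of set 2 minus Irx4KO), with which it shares DKO 2, 3 and 4, and 0 of 16607 genes differed between them (0%), with 563 (3.39%) at an unadjusted p under 0.05. DESeq2 called 11 genes here and limma-voom 3. The values for Bbs2 and Mt3 differed by 0.04 (SE 0.27) and -0.19 (SE 0.70). The median SE of this difference was 0.249, so it could resolve large differences only.

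Irx3KO against dHet lies wholly inside set 2 and called 1 gene (0.00602%), Irx3 itself, which fell by 2.21 (SE 0.13, adjusted p = 7.1e-08). Without adjustment 728 genes (4.38%) had p under 0.05, and DESeq2 called 12 genes. Bbs2 and Mt3 stood at 0.32 (SE 0.14) and 0.44 (SE 0.34), Mt2 at -1.29 (SE 0.46), Irx4 at -0.36 (SE 0.14), each with an adjusted p of 1, and Mycn at 0.02 (SE 0.10). This is another question than Irx3KO against WT, since dHet carries 1 mutant copy of both genes.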

How the data were processed

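PolyA RNA of E14.5 ventricles was sequenced in 18 libraries, grouped by the genotype in their titles. The authors deposited kallisto tables per transcript with estimated counts and TPM, per the file headers. Per the submitters' processing notes the version was 0.42.2 and the genome mm9. The transcript release and the strand option are not given in the sources. RNA came from a column kit at an integrity number above 8.5 and the kit was directional, per the labels' protocols. TPM values, which the authors' tool scales for length and library, were used to rebuild counts for one of the alternatives only.

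Counts were added up per gene for the 78030 of 88943 transcripts (87.73%) that matched a gene in GENCODE M21 by identifier, giving 28563 genes, and rounded. Unmatched transcripts held 6.42% to 6.77% of a library. edgeR 4.0.16 in R 4.3.3 (limma 3.58.1, DESeq2 1.42.0 as alternatives) fitted all 18 libraries as 6 groups, with DKO divided by set, using TMM, filterByExpr, a robust quasi-likelihood F test and Benjamini-Hochberg adjustment at 0.05. SE is the log2 difference divided by the square root of F, and 95% intervals use the fit's degrees of freedom. The script was tested on simulated data. Libraries of a group differed by more than sampling noise (smallest chi-square per gene 6.31).

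Named genes are Irx3 and Irx4, uncalled genes of the smallest bridged p to 6 a side and unbridged calls to 6 a side with at least 5 CPM in WT or Irx3KO, up to 3 members of each of 28 lists by bridged p, and further genes, among them Mt3, Mt2, Fuk, Tox3, Gnao1 and some list members, chosen after their values were seen. The members, sets, lists and rule were chosen with earlier results of these data known, so no list is independent evidence. Of 448 list entries 440 were tested, 7 had low counts and 1 was not matched. Alternatives covered normalization, test, filters, length, sex, replicate block and each library left out.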

Additional observations from a re-analysis of the deposited data

Results flagged for a closer look

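Among the 118 named genes, 11 had 1 DKO library apart from the other 5, by a gap over 0.625 of the range of the 6 DKO libraries. Chance alone gives about 1 in 20 when all 6 are draws from 1 normal population. The DKO libraries span both sets, and named genes such as Hist1h2ap and Hist1h2ao are not independent, so that rate need not hold here. DKO 5 was the library for 7 of them, all in the direction of a higher level. Slc25a31 was at 14.4 CPM in DKO 5 against 1.53 to 5.77 CPM in the others, and Mt2 was at 5.43 CPM against 1.36 to 2.61 CPM. The complement genes C1qa and C1qc were at 9.92 and 8.99 CPM against 4.39 to 6.40 and 5.24 to 6.51 CPM. The ribosomal protein genes Rpl27 and Rps29 were at 48.6 and 348 CPM against 21.6 to 30.0 and 229 to 251 CPM, and Th, a catecholamine synthesis gene, was at 0.621 CPM against 0.110 to 0.296 CPM. In DKO 7, Cytl1 was at 12.4 CPM against 5.21 to 7.70 CPM and the heat shock gene Hsph1 was at 55.0 CPM against 28.7 to 36.2 CPM. Fgf16 was at 0.412 CPM in DKO 2 against 0.0234 to 0.113 CPM, and Lyz1 at 1.60 CPM in DKO 4 against 0.899 to 1.10 CPM. These 6 libraries span both sets, and each enters the bridge, where the count of called genes was 11 without DKO 5.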

How the results depend on the processing

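The bridge called 16 genes by DESeq2, and 1 by limma-voom with quality weights and 1 by limma-voom with the replicate block as a random term, Irx3 in each case. Leaving out each of the 12 WT, Irx3KO and DKO libraries in turn gave 2 to 11 bridged calls, Irx3 always among them, with 5 without DKO 3, 11 without DKO 5, 5 without WT 2, 6 without WT 3 and 2 without DKO 4 or DKO 10. Irx3 fell past the threshold in all alternatives to the bridge. The call of Ctse, at -5.64 to -5.09 in these settings against -5.37, was lost without DKO 10 (adjusted p 0.094) and under both limma-voom fits (0.42 and 0.15). That of Tex13b, at 2.91 to 3.26 against 3.26, was lost under both limma-voom fits (0.073 and 0.069), with the 12 libraries alone (0.076), with a covariate for Y-linked genes (0.065) and without DKO 4 (0.054). Among the named genes, the calls gained were Irx4 without WT 3, Vwf without Irx3KO 2, and Bbs2, Mt3, Dph6, Dusp4, Angpt2, Zfp970 and Smoc2 under DESeq2. The cause of these was not tested. Irx4 and Vwf were the list members called in the bridge beside Irx3 in any alternative, over 13 lists checked. Bridged medians ran from 0.05 to 0.19 for sarcomere genes, -0.21 to -0.03 for Wnt genes, -0.39 to -0.01 for macrophage markers and 0.36 to 0.64 for the Iroquois genes.

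Unbridged calls numbered 4523 by limma-voom with quality weights, 754 with the length trend removed, 68 with all 6 DKO libraries as 1 group and 1223 to 3300 with a library left out (3300 without DKO 5, 1223 without WT 2, and 1255, 1260 and 1362 without Irx3KO 1, 2 and 4). Between the DKO sets the counts were 1549 by limma-voom, 1455 with the length trend removed and 1693 to 3876 with a library left out (1693 without DKO 3). The contrast with Irx3 loss on the Irx4 mutant background gave 11 by DESeq2, 3 by limma-voom and 0 to 1 with a library left out (1 without DKO 5 or Irx3KO 2). Irx3KO against dHet gave 12, 2 and 1 to 2 (2 without DKO 3, dHet 2 or dHet 4). Leaving out each Irx4KO or dHet library for these 2 contrasts was added after the data were seen.

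Replicate numbers are shared by groups in the labels. Deviations of same-numbered libraries from their group means had a Pearson r from -0.40 to 0.23 across 11252 genes, and the main fit did not pair them. Such correlations cannot exclude a shared litter or batch. The bridge with the number as a fixed block could not be fitted, because DKO 5, 7 and 10 have numbers of their own. Unbridged, the fixed replicate block gave 2905 calls and the random replicate block 2067, against 2132 without a block.

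Bridged values near 0 changed sign. With a covariate for Y-linked genes Mlph stood at 0.43, N4bp2 at 0.02, Slc25a31 at 0.15 and Cebpb at 0.01. With limma-voom Ppp1r17 stood at 0.15, Hist1h2ap and Hist1h2ao at -0.04, Nppa at 0.10 and Tbx20 at 0.04. With the length trend removed Ttn stood at -0.02. With a library left out the values ran from -0.43 to 0.06 for Mlph, -0.28 to 0.35 for Fat1, -0.94 to 0.43 for Slc25a31, -0.48 to 0.13 for Ppp1r17, -0.09 to 0.18 for Hist1h2ap and Hist1h2ao, -0.01 to 0.57 for Gja5, -0.24 to 0.08 for Nppa, -0.05 to 0.14 for Irx5, -0.07 to 0.02 for Fto, -0.41 to 0.06 for Tbx20, -0.06 to 0.25 for Fn1, -0.01 to 0.25 for Igf1r and -0.63 to 0.07 for C1qa. None of these was called in the bridge. In all, 2528 of the alternatives' values kept direction and side of the threshold, 48 changed sign, 9 gained and 8 lost the call.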
